A study of Homo sapiens with 16 samples.

Results

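RNA polymerase II (Pol II) peaks were described at 8 human genes of the translation machinery whose mRNAs carry a 5′ terminal oligopyrimidine (TOP) tract. The genes are EEF1A1, EEF2, RPL3, RPL4, RPLP0, RPSA, TPT1 and NPM1, taken by name, with no threshold on a measured value, though the group was proposed with earlier results of these data known. Each was taken at its hg19 span plus 2 kb upstream and 5 kb downstream, called its window below. The 8 spans lay in 8 different Pol II domains of 22314 in the genome, where a domain is a set of Pol II peaks with no gap over 5 kb.

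The cells were hTERT RPE-1, wild type, a telomerase-expressing line from human retinal pigment epithelium, and every library came from cells kept for 48 h in medium with 0.1% serum. Chromatin immunoprecipitation and sequencing (ChIP-seq) used an antibody to the Pol II subunit RPB1 in 3 libraries given vehicle (DMSO) for 30 min and 3 untreated libraries, which share the control list, in 3 libraries given 200 uM merbarone for 30 min and in 2 given it for 1 h. TOP2A was mapped in 2 untreated libraries. The 3 IgG libraries (DMSO, merbarone and untreated) were not analysed here. Merbarone blocks topoisomerase II, the enzyme class that removes supercoils ahead of and behind transcribing polymerase, and the series asks how supercoiling bears on Pol II pausing near promoters. No vehicle library matches the 1 h time. All libraries come from 1 cell line, and the line's identity was not checked against pigment epithelium markers here.

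Each condition had 1 peak list, so no value below has a replicate spread and no test between conditions was possible. The lists held 87911 peaks in control, 85990 at 30 min, 81816 at 1 h and 1840 for TOP2A. Read depth was unknown, and peaks carried no height. Cover, the percentage of a stretch that lies under peaks, tells where Pol II was called and not how much was there, so a stretch already fully covered cannot show a gain. The lists also differed in their narrowest peak (136, 150 and 159 bp) and in the smallest gap between peaks (1, 1 and 38 bp) for control, 30 min and 1 h, so small differences in cover can come from the lists themselves. Sets of 3 values below give control first, then 30 min, then 1 h, unless stated.

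TOP mRNAs encode ribosomal proteins, elongation factors and a few proteins tied to ribosome assembly. They start with a C that is followed by an unbroken run of pyrimidines, and growth signals acting through mTOR control how well this tract lets them be translated. Their genes are among the most heavily transcribed in dividing cells. In the elongation step of translation eEF1A, the EEF1A1 product, brings aminoacyl-tRNA to the ribosome and eEF2 moves the ribosome along the mRNA.

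The start-site sequences are printed because they define the group and were not used to pick the windows. They come from RefSeq on GRCh38.p14, whose coordinates are not those of hg19. Each runs from 40 bases before the annotated start to 20 bases from it, so the start is the 41st letter. Capitals mark the pyrimidine run at the start and the letters TATA where they begin 40 to 20 bases before it. In RPL4 capitals mark the longest run within 10 bases of the start instead.

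EEF1A1, chr6:73521013-73521072, minus strand: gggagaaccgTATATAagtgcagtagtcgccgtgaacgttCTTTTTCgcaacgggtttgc
EEF2, chr19:3985444-3985503, minus strand: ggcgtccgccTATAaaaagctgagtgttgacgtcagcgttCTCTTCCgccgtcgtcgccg
RPL3, chr22:39319604-39319663, minus strand: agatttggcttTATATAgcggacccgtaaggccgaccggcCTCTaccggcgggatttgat
RPL4, chr15:66504836-66504895, minus strand: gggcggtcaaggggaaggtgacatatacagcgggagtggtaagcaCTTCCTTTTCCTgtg
RPLP0, chr12:120201092-120201151, minus strand: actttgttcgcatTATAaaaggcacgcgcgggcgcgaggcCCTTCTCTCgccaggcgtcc
RPSA, chr3:39406680-39406739, plus strand: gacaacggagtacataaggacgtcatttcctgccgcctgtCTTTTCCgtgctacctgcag
TPT1, chr13:45341164-45341223, minus strand: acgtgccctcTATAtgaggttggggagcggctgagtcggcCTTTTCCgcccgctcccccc
NPM1, chr5:171387809-171387868, plus strand: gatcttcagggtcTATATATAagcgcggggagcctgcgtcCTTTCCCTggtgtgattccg

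A C at the annotated start followed by at least 4 pyrimidines was found in 6 of the 8 genes. Of the 35116 promoters that RefSeq lists here, 1429 (4.07%) had it. The run with its C was 7 bases long in EEF1A1, EEF2, TPT1 and RPSA, 8 in NPM1 and 9 in RPLP0. RPL3 had a run of 4 bases at its start, and 5 bases when read from 1 base earlier. RPL4 began with A at its annotated start, and its run of 12 pyrimidines began 5 bases further on. A C with at least 4 pyrimidines within 10 bases of the start was present in 8 of 8 genes and in 33.5% of all promoters listed. The letters TATA, read on the transcribed strand and starting 40 to 20 bases before the start, were found in 6 of 8 genes and in 6.17% of those listed. RPL4 and RPSA lacked these letters in that stretch, though the printed RPL4 sequence holds them nearer to its annotated start. NPM1 has a second RefSeq start, with G as its first base and neither feature, and the entry printed is the one with the tract. The search for TATA was added after the sequences were seen.

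Pol II covered most of each window before any merbarone was given. In control, cover was 81.6% for EEF1A1, 80.5% for TPT1, 79.3% for RPL3, 76.5% for EEF2, 68.2% for RPLP0, 66.7% for RPSA, 57.6% for NPM1 and 51.2% for RPL4. All 8 windows were thus over 50% covered. Of 13133 tiles of 10 kb with at least 10% control cover, 13.5% reached 50%. The windows start near a gene start and the tiles fall anywhere, so the sets are not placed alike. Only 3.71% of those tiles had control cover as high as EEF1A1, and 12.9% had cover as high as RPL4.

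**Figure D1:**
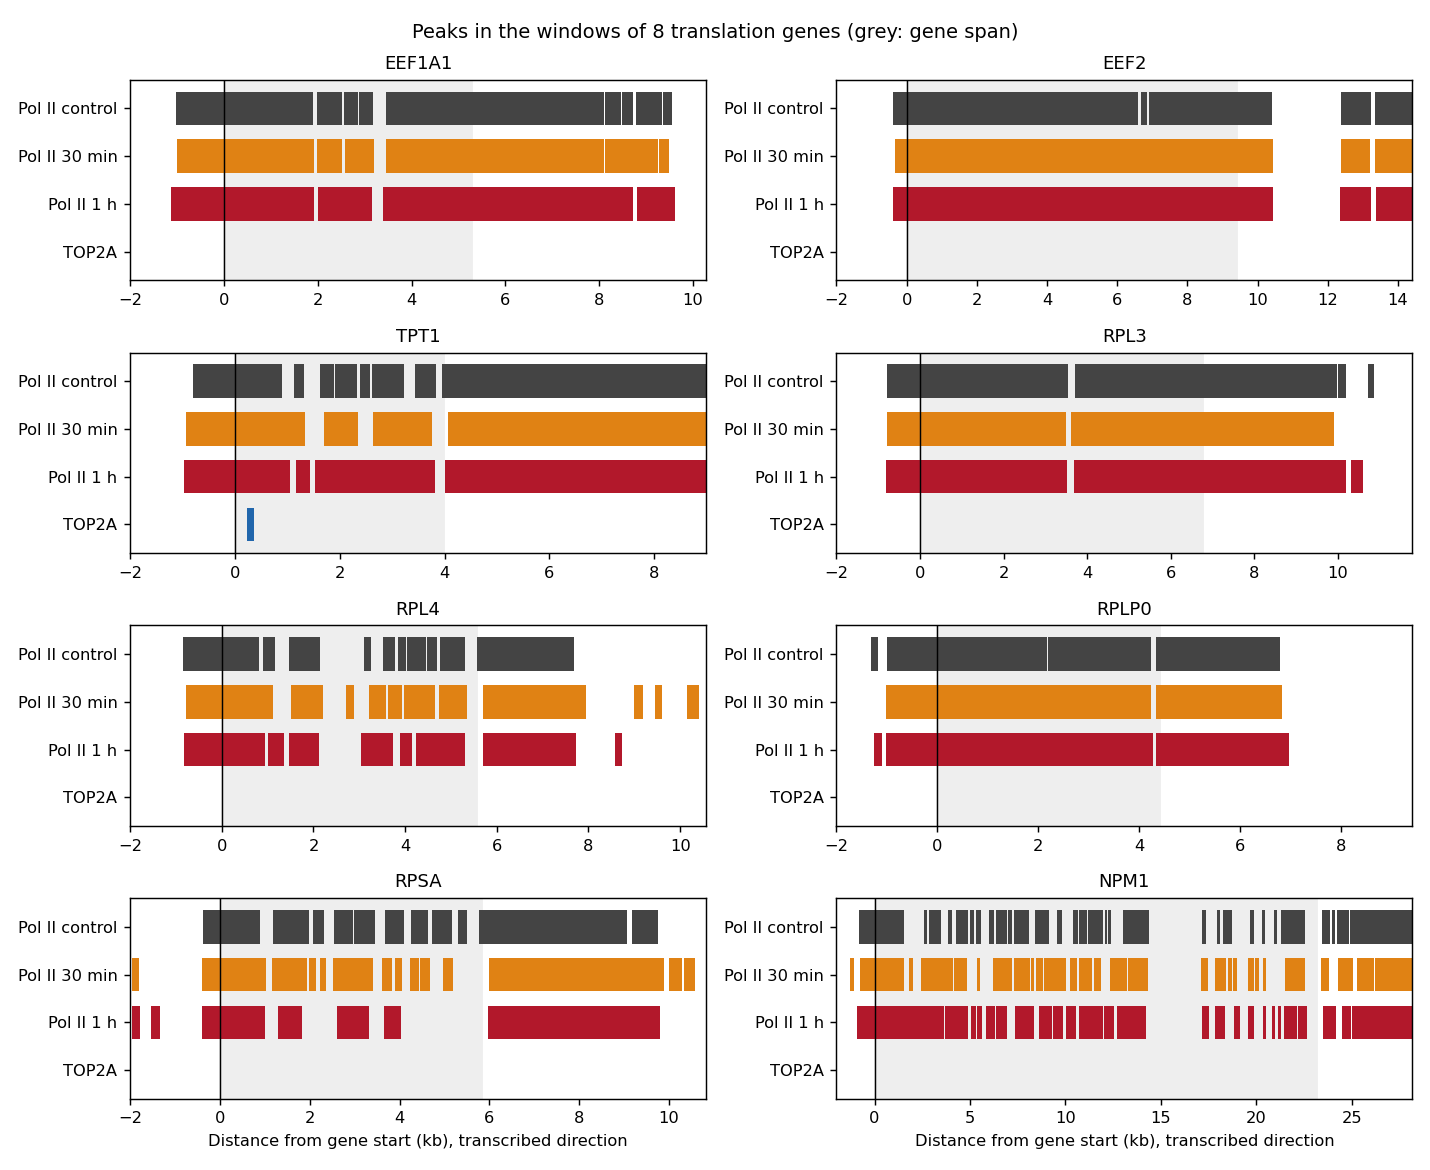
Peaks of the 3 Pol II lists and of the TOP2A list (rows) in each of the 8 windows, by distance from the gene start in kb along the transcribed direction, with the gene span in grey. Nearly unbroken cover runs through EEF2, RPL3 and RPLP0, peaks lie past the ends of all 8 genes, NPM1 holds a gap of 2746 bp in all 3 Pol II lists, and the only TOP2A peak is at TPT1.

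With all peaks counted, window cover changed by less than 10 points in each gene at 30 min and in all but NPM1 at 1 h, with RPSA close to that limit at -9.92. Cover was higher than control in 6 of 8 windows at 30 min and in 7 of 8 at 1 h, with median changes of 0.852 and 2.51 percentage points. The median over all tiles was 1.65 points at 30 min (15300 tiles with at least 10% cover in either list) and 5.04 points at 1 h (17185 tiles). Most tiles were thus also higher than control. The share at 30 min lay between 60.3% (a change of at least 0.545 points) and 69.9% (at least -0.420 points, the change of RPLP0). For 1 h it lay between 73.1% (at least 1.16 points) and 97.7% (at least -9.92 points). With 8 windows, the counts of 6 and 7 cannot be called different from these shares, and no test of that was made. Only 13133 tiles had 10% cover in control, so the others entered through the merbarone list alone and had to be higher. This filter raises the tile medians and the shares covered more, and lowers the shares covered less. At 30 min 60.3% of tiles rose at least as much as EEF1A1 (0.545 points), the smallest rise of the 8. At 1 h 73.1% rose at least as much as EEF2 (1.16 points), again the smallest. No window was covered more by at least 10 points at 30 min, where 15.0% of tiles were, and no window was covered less by that much, where 3.54% of tiles were. At 1 h only NPM1 of the 8 was covered more by at least 10 points, against 32.6% of tiles, and no window was covered less by that much, against 2.25% of tiles. The tile shares depend on length. In tiles of 20 kb 10.9% were covered more by that much at 30 min and 30.6% at 1 h. These counts depend on which peaks are used. With only peaks of at least 300 bp, RPL4 and NPM1 were covered more by that much at 30 min (18.2% of tiles) and EEF1A1, TPT1 and NPM1 at 1 h (38.9% of tiles), so the 8 genes were then near the background. RPSA was covered less by at least 10 points at 1 h over the gene span alone, over the span plus 2 kb on either side (-14.5 points), and with like limits on the peaks of all lists (-10.2 points). With like limits 1.69% of tiles were covered less by that much at 1 h. In tiles of 5 kb, nearer in length to the RPSA span of 5.83 kb, 4.45% were.

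Tiles that were already well covered are a nearer comparison, since they have less room to gain than tiles in general. Most of them still have more room than the best covered windows. Of tiles with at least 10% control cover, 13.5% reached 50% but only 3.71% reached the cover of EEF1A1. Among 1773 tiles with at least 50% control cover, 14.2% were covered more by at least 10 points at 30 min and 11.3% less. At 1 h these shares were 36.5% and 5.30%. The median change in these tiles was 1.00 point at 30 min and 6.16 points at 1 h. The choice of this subset was made after the windows' cover was seen. With 8 windows, counts of 0 and 1 are too few to call the genes different from the tiles, and no test of that was made. The 30 min and 1 h comparisons share the control list.

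**Figure D2:**
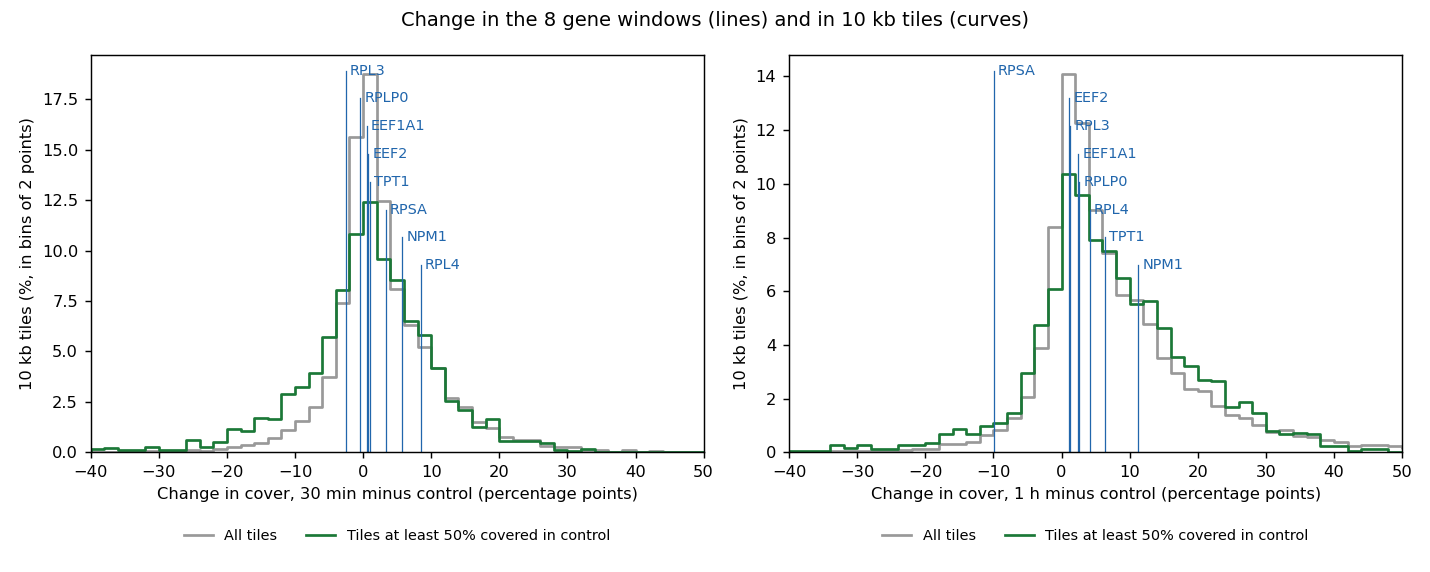
Change in cover against control at 30 min (left) and 1 h (right), in percentage points, as the percentage of 10 kb tiles in bins of 2 points (curves, all tiles and tiles at least 50% covered in control) and for each of the 8 windows (labelled lines, whose height has no meaning). At 30 min the 8 windows lie between -2.55 and 8.46 points, and at 1 h RPSA stands at -9.92 while the others lie between 1.16 and 11.3.

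The windows of both elongation factor genes changed by under 3 points when all peaks were counted. EEF1A1 spans chromosome 6 from 74225473 to 74230755 on the minus strand. Window cover was 81.6%, 82.1% and 84.0%, and the values differ by 2.43 points from lowest to highest. With only peaks of at least 300 bp its changes were 6.86 and 10.5 points, so this small range depends on the narrow peaks in control. Of its 12283 bp, 80.1% lay under peaks in all 3 lists and 14.7% in none. Its promoter, 500 bp either side of the start, was fully covered in each list.

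EEF2 spans chromosome 19 from 3976054 to 3985461 on the minus strand and had the smallest range of the 8 with all peaks counted, with 76.5%, 77.2% and 77.6% of its window covered. Its body, from 500 bp past the start to the end, was covered over 98.5%, 100% and 100%. A single peak of 10767 bp spanned the gene at 30 min, and only 37 of the 85990 peaks of that list (0.0430%) were as wide. In control the same stretch was split into peaks of 6976 bp and less, and at 1 h the peak measured 10819 bp. The edges of cover barely moved. Pol II began 373, 336 and 378 bp before the start and ended 989, 1023 and 1033 bp past the gene's end. No Pol II peak lay in the stretch from 2 kb to 500 bp upstream of EEF2 in any list.

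Of the large-subunit genes, RPL3 and RPLP0 had bodies covered over 96.6% or more in each list and RPL4 did not. RPL3, which encodes a protein at the heart of the large subunit, spans chromosome 22 from 39708887 to 39715670 on the minus strand. Cover of its window was 79.3%, 76.8% and 80.6%. The lowest value is at 30 min and comes from the 5 kb past the end, which was covered over 70.5%, 62.4% and 74.1%, while the body stood at 97.4%, 98.0% and 97.0%.

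RPLP0, whose product forms the base of the ribosomal stalk, spans chromosome 12 from 120634489 to 120638910 on the minus strand. Peaks lay over 68.2%, 67.8% and 70.8% of its window. Body cover was 96.6%, 97.3% and 98.3%. The control peak over the start was 3172 bp wide and ended inside the gene, and at 30 min and 1 h it was joined with the next to 5240 and 5286 bp, which closes a gap of only 23 bp.

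RPL4, a structural protein of the large subunit, spans chromosome 15 from 66791653 to 66797221 on the minus strand and was the least covered of the 8. Window values were 51.2%, 59.7% and 55.4%. Its body was covered over 58.6%, 67.0% and 68.0%, so both merbarone lists stood above control there. Past the end the highest value was at 30 min, with 42.3%, 56.7% and 43.9%, and narrow peaks found at that time alone make up part of it. With peaks within 1 kb joined, the RPL4 window was covered more by 12.7 points at 30 min, which passes the limit of 10, as 21.1% of tiles did. ZWILCH, which starts beside RPL4 on the other strand, and SNAPC5 past its end are neighbours in RefSeq on GRCh38. Pol II peaks carry no strand, so cover beside the start cannot be given to RPL4 or ZWILCH.

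RPSA had the largest difference between the merbarone times. RPSA, a small-subunit protein also known as a laminin receptor, spans chromosome 3 from 39448204 to 39454033 on the plus strand. Peaks lay over 66.7%, 70.0% and 56.8% of its window, and it was the only window of the 8 below control at 1 h. Among all tiles, 97.7% had a change at 1 h as high or higher. The 1 h change was below 0 in each of 5 alternatives, from -29.3 to -2.50 points, where the last has peaks within 1 kb joined. The 30 min change, 3.31 points, was below 0 in 4 of the 5, so its direction depends on the settings. The lower cover lay in the body, at 72.4%, 66.1% and 40.4%. Around its start, cover was 88.4%, 90.2% and 90.8%, and in the 5 kb past its end it was 76.3%, 88.1% and 76.6%. The window held 11, 15 and 7 peaks. At 1 h the last 1799 bp of the gene held none, and the next peak began 142 bp past its end. Counted over the gene span alone, the 1 h change of RPSA was -29.3 points, against -9.92 for the window. The like limits above joined gaps up to 37 bp and left out peaks under 159 bp in every list.

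TPT1 encodes the translationally controlled tumour protein and spans chromosome 13 from 45911304 to 45915297 on the minus strand. Cover of the window was 80.5%, 81.5% and 86.9%. Its body was covered over 73.2%, 74.5% and 88.7%, and over the gene span alone the 1 h value was higher than control by 13.6 points. The 5 kb past its end were covered over 100%, 98.5% and 99.7%. RefSeq on GRCh38 gives TPT1 a span 3719 bp longer than that used here, so much of this cover may lie inside a longer form of the gene. The same excess was 1272 bp for RPL4 and 604 bp for NPM1, and for the other genes the spans were within 42 bp of RefSeq.

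NPM1 encodes nucleophosmin, a nucleolar chaperone used in ribosome assembly, and is the longest of the 8 at 23.2 kb, on chromosome 5 from 170814708 to 170837888 on the plus strand. The window stood at 57.6%, 63.4% and 68.9%, so each later list was higher than the one before. The change at 1 h was 11.3 points, and 28.8% of tiles had a change as high. The body was covered over 51.1%, 59.5% and 66.2%, with the highest value at 1 h. The peak over the start reached 1523, 1517 and 3652 bp into the gene. With peaks within 1 kb joined, the 1 h change of the window was 3.49 points (83.2% in control and 86.7% at 1 h), so the call at NPM1 rests on gaps of up to 1 kb being counted as uncovered. A stretch of 2746 bp, from 14375 to 17120 bp past the start, lay under no peak in any list.

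**Figure D3:**
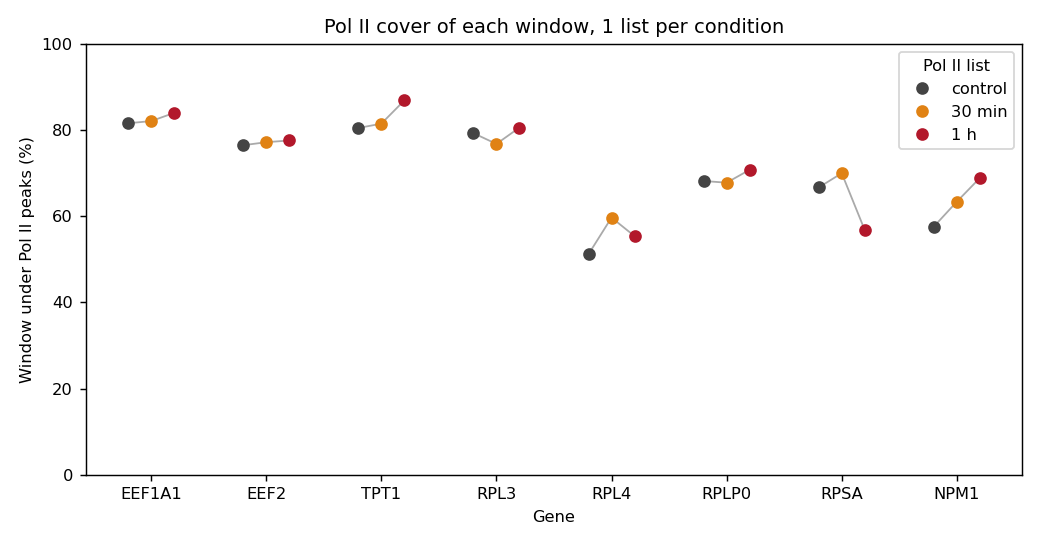
Percentage of each of the 8 windows (x axis) under Pol II peaks (y axis) in control, at 30 min and at 1 h of merbarone, with 1 list per condition and so no error bar. EEF1A1, EEF2, RPL3 and RPLP0 vary by 3.81 points or less and NPM1 goes from 57.6% to 68.9%. RPSA has its own lowest value at 1 h (56.8%), where RPL4 is lower still (55.4%).

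By part of the gene, median cover was highest at promoters. The 1 kb around the start was fully covered in 6 of 8 genes in every list. EEF2 (87.3%, 83.6% and 87.8%) and RPSA were the others, because their cover began less than 500 bp before the start. The promoter therefore had no room for a gain in 6 genes, so its small changes cannot be set against those of the bodies. Taken as 1000 bp either side, cover was 84.8%, 96.4% and 98.5% at TPT1, 90.8%, 87.4% and 97.0% at NPM1, and 64.0%, 70.1% and 70.4% at RPSA. Bodies had a median cover of 81.9%, 83.4% and 90.9%. The body was covered more at 1 h than in control in EEF1A1, EEF2, TPT1, RPL4, RPLP0 and NPM1 and less in RPL3 and RPSA. Most tiles were also higher than control at 1 h, and no background of gene bodies was counted. Median cover in the 5 kb past the end was 73.4%, 72.7% and 75.3%, so Pol II peaks lay past the ends of these genes in all lists. Such cover need not run on from the gene. At EEF2 it stopped 989, 1023 and 1033 bp past the end, before a gap of 1902 bp shared by all lists.

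Upstream of the promoter, from 2 kb to 500 bp before the start, median cover was 20.3%, 24.3% and 27.9%. RPSA had none there in the control list, then 10.2% and 26.4%, all from narrow peaks. The 30 min value was a peak of 153 bp, which the like limits leave out as under 159 bp. The 1 h value came from peaks of 187 and 209 bp. With only peaks of at least 300 bp none of these would count, so the rise at RPSA depends on narrow peaks. TPT1 and RPLP0 have antisense RNA genes beside their starts in RefSeq (TPT1-AS1 and PXN-AS1), so upstream cover there is shared between neighbours.

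**Figure D4:**
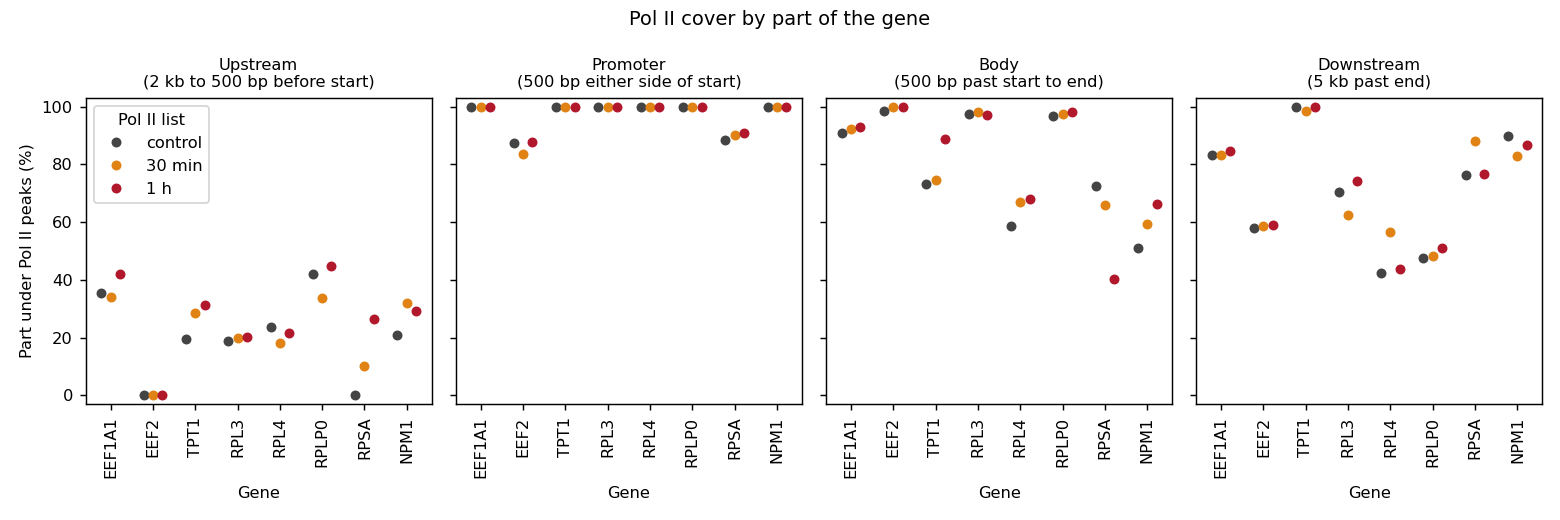
Percentage of 4 parts of each gene (panels) under Pol II peaks (y axis) in the 3 lists, for the 8 genes (x axis). Promoters sit at 100% in 6 genes in all lists, and the widest spread is the RPSA body, from 72.4% in control to 40.4% at 1 h.

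The run of Pol II past each gene's end was measured to the last peak reached without a gap over 1 kb. The EEF1A1 run ended 4.28, 4.22 and 4.33 kb past the end, and the RPLP0 run 2.37, 2.42 and 2.56 kb past it. GCN1 is the neighbour past the end of RPLP0 in RefSeq on GRCh38, on the same strand. It was not placed in hg19, so the RPLP0 run cannot be given to RPLP0 alone. At RPL3 the run ended 4.08, 3.12 and 3.81 kb past the end, and with gaps limited to 500 bp the control value was 3.40 kb, below that at 1 h. With the 1 kb limit the distances at EEF1A1, RPLP0 and RPL3 moved by 1 kb or less between lists. At RPL4 they were 2.12, 2.38 and 3.17 kb, where the last falls to 2.16 kb with the 500 bp limit. The TPT1 run reached 10.1, 9.66 and 7.49 kb, and 7.46, 8.40 and 7.49 kb with the 500 bp limit, so the order of the lists depends on the gap allowed. The NPM1 run reached 8.52, 8.93 and 9.03 kb, but a gap of 751 bp lies across the gene's end in every list, so with the 500 bp limit no run held the end. At RPSA it reached 3.92 kb in control and 5.28 kb at 30 min, and at 1 h no run held the gene's end. With the 500 bp limit none held it at 30 min either.

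Cover at 1 h was also counted in the rest of each gene's Pol II domain. The domains join the peaks of all 3 lists, so the 1 h peaks help set their bounds, and a 1 h difference of at least 10 points upward was found in 49.7% of the domains 5 kb or longer that had peaks in both lists. The EEF2 domain extends 22.3 kb beyond the window past the gene's end, on the side of DAPK3, its RefSeq neighbour. That stretch was covered over 39.4%, 39.3% and 67.5%, a 1 h difference of 28.1 points where the EEF2 window differed by 1.16. The RPLP0 domain extends 62.8 kb beyond the window before the gene's start, on the side of PXN-AS1. That stretch was covered over 38.1%, 36.6% and 60.3%, a difference of 22.2 points at 1 h against 2.59 in the window. The genes inside the stretches beside EEF2 and RPLP0 were not placed, as no hg19 annotation was used. Their cover cannot be given to DAPK3, to PXN-AS1 or to any other gene. The gene bodies were almost fully covered in control and were higher at 1 h by 1.48 points at EEF2 and 1.73 at RPLP0, so these differences do not compare the genes with what lies beside them on equal terms.

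Stretches beside the other genes were shorter and did not all go the same way. The 4.03 kb past the NPM1 window were covered over 71.2%, 81.2% and 96.3%. The 6.23 kb past the RPL4 window were covered over 12.6%, 14% and 27.1%. The 5.14 kb past the TPT1 window went the other way, with 60.8%, 48.8% and 46.1%. The 6.38 kb before the RPSA window held little, with 10.3%, 9.53% and 8.26%, and the 3.00 kb before the EEF2 window had 8.95%, 6.78% and 16.8%. EEF1A1 and RPL3 had no stretch of 1 kb or more outside the window in their domains.

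**Figure D5:**
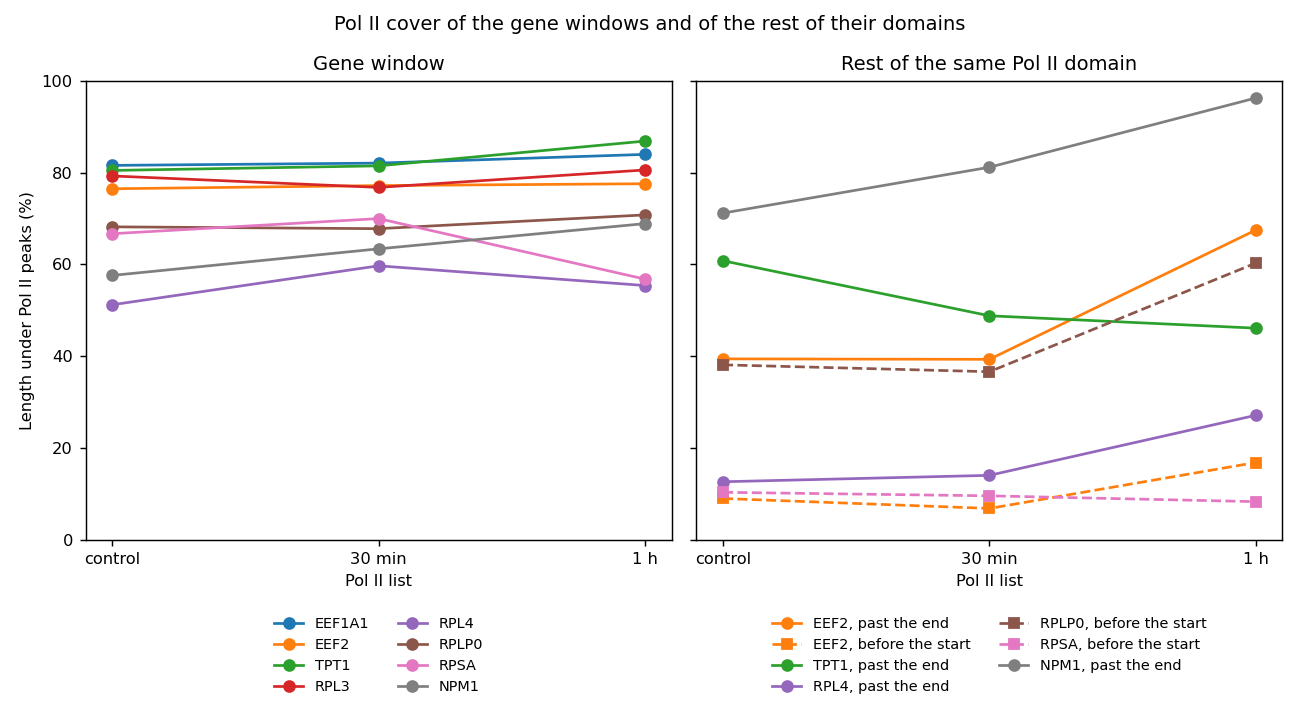
Percentage under Pol II peaks (y axis) in the 3 lists (x axis, not a time scale) for the 8 windows (left) and for the stretches of at least 1 kb of the same domains outside the windows (right, solid past the end, dashed before the start). The stretches beside EEF2 and RPLP0 reach 67.5% and 60.3% at 1 h, while both windows differ from control by under 3 points.

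TOP2A was called at 1 of the 8 genes. The TPT1 window held a single TOP2A peak of 136 bp in untreated cells, on chromosome 13 from 45914930 to 45915065. It lay 232 to 367 bp past the start of TPT1, inside the control Pol II peak that covers the start. Among tiles with at least 10% control cover 7.43% held TOP2A, and among those with at least 50% control cover 10.3% did, so 1 of 8 is near the background. The windows are longer than these tiles, so the shares are not for equal lengths. For the other 7 genes the nearest TOP2A peak lay from 70.8 kb beyond the window at EEF2 to 1026 kb at RPL3. The TOP2A list is short, and a gene with no peak in it may still bind TOP2A below the level that was called.

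Many of these genes have copies elsewhere in the genome. RefSeq on GRCh38 lists 220 pseudogenes named after the 8 genes, with 74 for RPSA, 50 each for EEF1A1 and NPM1 and none for EEF2. The sources used here do not say how reads that match several places were treated, and whether such copies lower the cover of exons was not tested. RPL3 hosts 4 small nucleolar RNA genes and RPL4 another 4, of 13 inside 5 of these genes, and cover over them was not counted apart from the rest of the gene.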

How the data were processed

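Per the submitters' processing notes, the tools were Bowtie 1.2.0, MACS2 and deepTools 2.4.1 and the build was hg19. The sources used here do not state peak thresholds, the MACS2 version, the background library or the combining of replicates. Each deposited list gives peak positions in bp and no other value. Depth per sample was unknown. Peak positions were taken as 0-based and half-open, and gene spans and printed positions as 1-based.

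The genes, lists and windows were chosen with earlier results of these data known. All 8 genes are named. Other translation genes and cell markers were not analysed here, since no hg19 annotation was used and positions were not carried between builds. Cover was the merged length under peaks divided by the length of the stretch. The background was every 10 kb tile with at least 10% cover in control or in the list compared. Tiles that entered through the merbarone list alone could only be higher than control, which raises the shares covered more. Differences of at least 10 percentage points were counted, and no test was run, as each condition had 1 list. Alternatives changed the limits on peaks, the stretch counted, the tile size and the limit of 10 points.

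Interval functions were tested on simulated data and equalled bedtools 2.31.1 in 20 of 20 runs. Python 3.11.15, numpy 2.4.6, scipy 1.17.1 and matplotlib 3.10.9 were used. Neighbours, copies and sequences came from RefSeq tables of GRCh38.p14, in which all 8 genes were matched by symbol.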

Additional observations from a re-analysis of the deposited data

Results flagged for a closer look

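At 3 genes the change in window cover had opposite signs at the 2 merbarone times. RPSA was covered more than control at 30 min (3.31 points) and less at 1 h (-9.92 points), so the 1 h change minus the 30 min change was -13.2 points. For RPL3 the changes were -2.55 and 1.26 points, a difference of 3.81. For RPLP0 they were -0.420 and 2.59 points, a difference of 3.01. The opposite signs depend on the settings. Among 5 alternatives the 30 min sign turned in 4 for RPSA, in 2 for RPL3 and in 3 for RPLP0. The 1 h sign turned in 3 for RPL3 and in none for RPSA and RPLP0. Each time had 1 list and both used the same control list, so none of these differences was tested.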

How the results depend on the processing

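No paired analysis was possible because each condition has 1 peak list for all its replicates, and no replicate could be left out for the same reason. The number of genes covered more by at least 10 points at 30 min, 0 as reported, was 2 with only peaks of at least 300 bp, 1 with peaks within 1 kb joined and 2 with a limit of 5 points. The shares of tiles were 15.0%, 18.2%, 21.1% and 30.2% in that order. At 1 h the number of genes was 1 as reported, 3 with peaks of at least 300 bp, 0 with peaks within 1 kb joined, 2 over gene spans alone, 2 with a limit of 5 points and 0 with 20. Tile shares were 32.6% as reported, 38.9% with peaks of at least 300 bp and 34.0% with peaks joined. They were 50.2% with a limit of 5 points and 13.3% with 20. The number covered less at 1 h, 0 as reported, was 1 (RPSA) with like limits (gaps up to 37 bp joined, peaks under 159 bp left out), over spans alone, over spans plus 2 kb on either side, and with a limit of 5 points. The shares of tiles covered less were 2.25% as reported, 1.69% with like limits and 5.32% with a limit of 5 points. In tiles of 5 kb the share was 4.45%, and no tiles were matched to the gene spans in length. The number covered less at 30 min was 0 in every alternative run, against 3.54% of tiles with the settings reported. The median change at 30 min, 0.852 points, was 0.659 with like limits, 4.31 with peaks of at least 300 bp, 0.614 with peaks joined, 1.28 over spans and 0.810 over spans plus 2 kb. At 1 h, 2.51 points became 2.87, 5.72, 1.17, 1.89 and 1.86. The cause was not tested. The count of genes with TOP2A was 1 throughout. Of 80 changes of single windows, 70 kept their side of the limit and none that passed it changed sign, while smaller changes did at EEF1A1, RPL3, RPLP0 and RPSA. With peaks within 1 kb joined, 4 of 8 windows were higher than control at 30 min and 6 at 1 h. The share of tiles higher than control was not counted with that setting. The share of background regions covered more at 1 h was 40% in tiles of 5 kb, 30.6% in tiles of 20 kb, 49.7% in domains and 36.1% with like limits. The tile shares with peaks of at least 300 bp, those with peaks within 1 kb joined, those with limits of 5 and 20 points, and the 500 bp gap limit on runs were chosen after seeing the data.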
